A study of Mus musculus with 12 samples.

Results

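The respiratory chain subunit genes are the protein-coding genes whose symbols begin with Ndufa, Ndufb, Ndufc, Ndufs or Ndufv, Uqcr, Cox4 to Cox8, or Atp5, the genes Sdha to Sdhd, and the mitochondrially encoded mt-Nd, mt-Co, mt-Cytb and mt-Atp genes. They were chosen by symbol alone, and 104 of them were listed in both tables, of 13867 protein-coding genes in the table of chow-fed mice and 13837 in that of mice on a high-fat diet. Of the 104 genes, 91 lie in the nuclear genome and 13 in the mitochondrial genome. The nuclear genes comprised 37 of complex I, 8 complex I assembly factors that share the Nduf prefix (Ndufaf), 4 of complex II, 8 of complex III, 17 of complex IV and 17 of complex V. The mitochondrial genes comprised 7 of complex I, 1 of complex III, 3 of complex IV and 2 of complex V. Ndufa4 and its relative Ndufa4l2 were counted with complex IV, and 1 retrocopy typed as protein coding, Cox5b-ps, stayed among them.

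Hypothalamus mRNA was measured by RNA-Seq in 12 male C57BL/6J mice of 8 weeks, 3 in each of 4 groups. Mice of both genotypes, WT (+/+) and Gpr75-/-, received either chow or, for 2 weeks, a high-fat diet (HFD). GPR75 is a G protein-coupled receptor of the brain, and the comparison asked how its loss alters hypothalamic transcripts on each diet. The germline null allele was made with CRISPR/Cas9 and ends the reading frame shortly after its start. All cells of the animal carry it, and the mRNA can still be made. Gpr75 mRNA had a log2 level of 5.06 in WT and 5.62 in Gpr75-/- mice on chow, and of 5.31 and 5.21 on the HFD, so its mRNA level does not serve as a check of the genotype labels.

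Each deposited table holds 1 mean normalized count per gene over the 6 mice of a diet and 1 mean per group, and no value of a single mouse. The group means are given on a doubly logarithmic scale with 2 decimals. They were converted to log2 levels, and the difference between Gpr75-/- and WT mice is that of the authors' group means. Because of the 2 decimals, a difference is known only to within rounding bounds of typically 0.053 on the log2 scale, a 1.04-fold change, for these genes. The authors' own test columns were not used, and the means alone give no spread between mice. No difference here therefore carries a test, and a gene past 1.2-fold (0.26 on the log2 scale) is described, not called significant. No level is compared between diets as an expression change, because the tables were normalized separately.

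The chain passes electrons from NADH (complex I) or succinate (complex II) to complex III, then through cytochrome c to complex IV, which reduces oxygen. Complexes I, III and IV pump protons out of the mitochondrial matrix, and complex V, the ATP synthase, uses their return to make ATP. Most subunits are transcribed in the nucleus, translated in the cytosol and imported, whereas a few hydrophobic core subunits are transcribed from mitochondrial DNA as long polycistronic RNAs by a separate polymerase. Neurons rely heavily on this pathway. Nuclear respiratory factor 1 (NRF1) is a well-known activator of nuclear genes for the chain.

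RefSeq promoter windows, running from 250 bases before to 50 after the transcription start on GRCm38.p6, were at hand for 75 of the 91 nuclear genes, in 80 windows. The NRF1 motif with 1 free base, searched on both strands, occurred in 20 of the 80 windows (25%), beside 9.01% of the 14092 windows of other protein-coding genes in the chow table and 4.6% of all 32851 windows. The stretches shown here were chosen because each holds the motif ahead of a gene of its complex. Among genes with one there, that gene had the highest mean count per kilobase on chow. Complex III is not shown, because its match does not lie wholly before the transcription start. They run 5′ to 3′ on the gene's strand and capitals mark the NRF1 motif, with the free base at its sixth letter.
Ndufs5, complex I, chr4:123718240-123718319, minus strand: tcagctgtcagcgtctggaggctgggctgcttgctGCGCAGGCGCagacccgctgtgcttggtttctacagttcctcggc
Ndufaf4, complex I assembly, chr4:24897935-24898014, plus strand: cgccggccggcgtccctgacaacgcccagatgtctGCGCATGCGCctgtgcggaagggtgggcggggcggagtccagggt
Sdha, complex II, chr13:74350241-74350285, minus strand: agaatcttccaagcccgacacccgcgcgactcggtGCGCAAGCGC
Cox6a1, complex IV, chr5:115349031-115349110, minus strand: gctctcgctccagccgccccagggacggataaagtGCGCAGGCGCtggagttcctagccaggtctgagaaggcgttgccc
Atp5h, complex V, chr11:115420016-115420095, minus strand: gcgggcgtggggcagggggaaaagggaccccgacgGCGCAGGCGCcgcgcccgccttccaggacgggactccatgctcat

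The motif was spread over the complexes. It occurred in 7 of 33 complex I genes, 2 of 7 assembly factors, 2 of 3 complex II genes, 1 of 5 complex III genes, 1 of 12 complex IV genes and 6 of 15 complex V genes with a window. The other searched motifs were less frequent in these windows than in those of other genes or rested on few windows. The ETS motif CCGGAAGT was in 6.25% of the windows and in 7.14% of those of other protein-coding genes, and the SP1 motif GGGCGG in 43.8% and 61.2%. The estrogen-related receptor motif TCAAGGTCA was in 2.5% of the windows beside 0.291%, a wider ratio than that of NRF1 but a count of only 2. No NRF1 match overlapped a match of another motif. A match is a run of letters and says nothing of binding in these mice.

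The respiratory chain genes were among the most abundant transcripts of the hypothalamus. Together they took 3.61% of all normalized counts on chow and 3.45% on the HFD, with 2.44% and 2.25% from the 13 mitochondrial genes and 1.17% and 1.2% from the 91 nuclear genes. The tables summed to 1.83e+07 mean normalized counts on chow and 1.94e+07 on the HFD. Levels of different genes were compared as mean normalized count per kilobase of the principal coding transcript. On that scale 100 of the 104 genes exceeded the median protein-coding gene (171 per kb on chow), and 85 lay in the top 10% of these genes, on either diet.

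On chow the nuclear complexes had median levels per kb of 1623 for complex I, 1856 for complex II, 2022 for complex III, 2750 for complex IV and 3088 for complex V. The order was the same on the HFD, with 1772, 2112, 2172, 3020 and 3392. It depended on the length used: with the union of all annotated exons, complex V had 1254 per kb on chow, under complexes II (1357), III (1436) and IV (1499), and complex I stayed lowest with 976. The assembly factors, which help to build complex I but do not stay in it, had a lower median than the subunits of any complex, 386 per kb, with a range of 178 (Ndufaf8) to 594 (Ndufaf2). That range takes in the complex I subunit Ndufb2 (376). The ordering of the 104 genes was nearly identical in the mice of either diet (Spearman's rho 0.998 across genes, a description, since both tables share genes and their lengths).

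**Figure D1:**
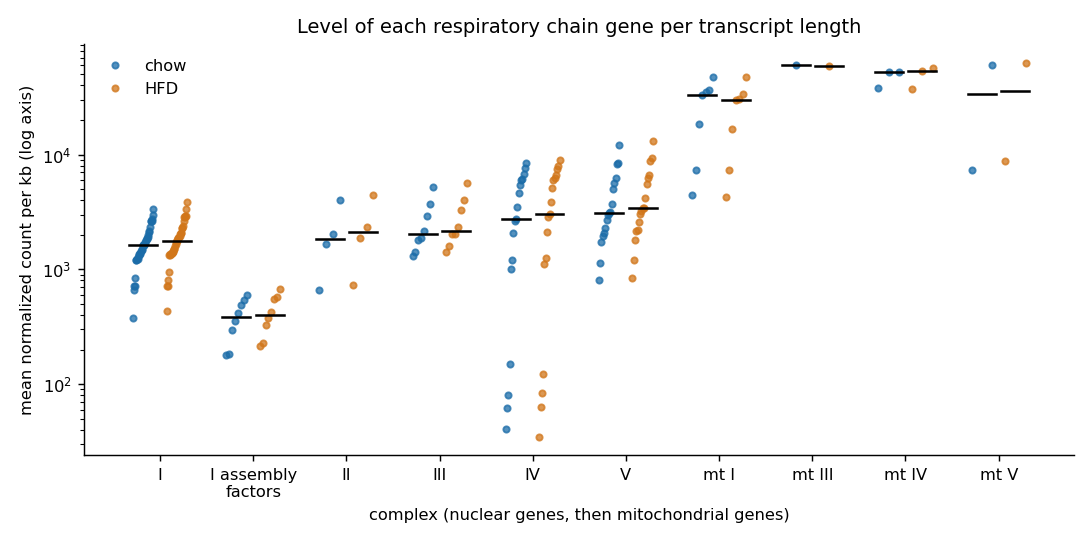
Mean normalized count per kilobase of the principal coding transcript (log axis) for each of the 104 genes, by complex, with nuclear genes on the left and mitochondrial genes on the right. Each point is 1 gene on chow (blue) or HFD (orange), and black lines are medians: 1623 to 3088 for the nuclear complexes and 32962 or more for the mitochondrial ones on chow.

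The 13 mitochondrial genes had a median of 36804 per kb on chow, against 1796 for the 91 nuclear genes. mt-Atp6, a proton channel subunit of complex V, stood highest with 60297, followed by mt-Cytb of complex III with 60165, mt-Co1, the catalytic subunit of complex IV, with 52930, and mt-Co3 with 52510. mt-Nd1 had 47877, mt-Co2 38069, mt-Nd2 36804, mt-Nd6 35165, mt-Nd4 32962 and mt-Nd5 18384. The 3 shortest genes had the lowest levels per kb, 7322 for mt-Nd3, 7309 for mt-Atp8 and 4456 for mt-Nd4l. Neighbouring mitochondrial genes overlap on the mitochondrial genome, mt-Atp8 with mt-Atp6 by 43 bases, mt-Nd4l with mt-Nd4 by 7 and mt-Nd5 with mt-Nd6 by 14. mt-Nd6 lies on the opposite strand from its neighbours, and whether reads were counted by strand is not given in the sources used here, so its reads and antisense reads cannot be told apart.

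Among complex I genes, the 7 nuclear core subunits, which carry the flavin and iron-sulfur clusters, spanned a narrower range than the complex as a whole. They ran from 1221 per kb for Ndufs8 to 2010 for Ndufv2 on chow, a ratio of 1.65, and among those between them were Ndufs1 with 1361, Ndufs3 with 1391, Ndufs7 with 1518 and Ndufv1 with 1634. The ratio on the HFD was 1.74, and with the union of all exons it was 3.60 on chow. All nuclear complex I subunits ran from 376 (Ndufb2) to 3366 (Ndufc2). In complex II, Sdha, the flavoprotein that oxidizes succinate, had 4004 per kb, Sdhb, the iron-sulfur subunit, 2036, and the membrane anchors Sdhd and Sdhc 1676 and 665. In complex III the Rieske iron-sulfur protein gene Uqcrfs1 had 1877 and Uqcrb, at 5213, the highest level of that complex.

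In complex V, Atp5b, which encodes the catalytic beta subunit of the F1 head, had 12206 per kb, the highest level of the nuclear genes on this length scale, where Cox8a was highest with the union of all exons. Atp5a1 (alpha subunit) had 5707, Atp5c1 (gamma subunit) 3739, Atp5e (epsilon subunit) 2279 and Atp5d (delta subunit) 1737. The alpha and beta subunits are present in several copies per enzyme and the gamma, delta and epsilon subunits in single copy. The 3 genes Atp5g1, Atp5g2 and Atp5g3 encode the same mature c-ring subunit, and they differed widely in level. Atp5g3 stood at 8210 per kb, 10.2 times Atp5g1 and 7.20 times Atp5g2 on chow, and 10.4 and 7.29 times on the HFD. With the union of all exons the ratios on chow were 6.18 and 6.78, so Atp5g3 stayed highest and the order of Atp5g1 and Atp5g2 turned.

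The tissue isoforms of complex IV separated in the same way. Cox6a1 exceeded Cox6a2, the heart and skeletal muscle form, by 40.4 times on chow and 51.4 times on the HFD. Cox6b1 exceeded Cox6b2, known as a testis form, by 68.3 and 71.7 times, and Cox7a2 exceeded Cox7a1, another muscle form, by 57.0 and 60.9 times. Ndufa4 exceeded Ndufa4l2, a hypoxia-inducible relative, by 208 and 259 times. These ratios depended on the length used: with the union of all exons they were 32.8 and 41.8 for Cox6a1, 119 and 125 for Cox6b1, 54.2 and 57.9 for Cox7a2, and 93.9 and 117 for Ndufa4. Each major form stayed far above its minor form on either scale. These 4 minor forms were the genes under the protein-coding median, with mean normalized counts of 101 for Cox6a2, 44.2 for Cox6b2, 38.2 for Ndufa4l2 and 24.3 for Cox7a1 on chow. Cox4i1, Cox7b and Cox8a had 6795, 2647 and 7579 per kb, and Cox7a2l 1013.

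On chow, the genotype difference of the respiratory chain genes was small. Cox6b2 alone was past 1.2-fold, 1 of 104 genes. Of the 13864 protein-coding genes with a mean of at least 10, 7.51% were past it, 3.79% higher and 3.72% lower. Abundant genes passed it less often: of 4304 other protein-coding genes with a mean of at least 1000, 12 did so higher and 49 lower. No respiratory chain gene of that level was past it. The log2 level of Cox6b2 was 2.04 in WT and 2.45 in Gpr75-/- mice, a difference of 0.40 with rounding bounds of 0.39 and 0.42. It is 1 of the 3 nuclear members with a mean under 100. At 2 decimals, 47 genes were higher in Gpr75-/- mice, 32 were equal and 25 were lower (45.2%, 30.8% and 24.0%), beside 43.6%, 16.2% and 40.2% of all protein-coding genes. Their median difference was 0, as over all protein-coding genes, and their mean 0.021 against 0.0033.

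On the HFD, Cox6b2 was again the single gene past 1.2-fold, beside 6.38% of 13834 protein-coding genes, 3.23% higher and 3.14% lower. Of 4519 other protein-coding genes with a mean of at least 1000, 5 were past it higher and 36 lower. The log2 level of Cox6b2 was 2.06 in WT and 2.41 in Gpr75-/- mice, a difference of 0.36 with rounding bounds of 0.34 and 0.37. At 2 decimals 45 genes were higher, 42 were equal and 17 were lower (43.3%, 40.4% and 16.3%), beside 45.3%, 19.1% and 35.6% of all protein-coding genes. The mean difference was 0.025 against 0.0082, and the median 0 in both. The genes are abundant, and at high levels the 2 decimals leave more values equal: among other protein-coding genes with a mean of at least 1000, 25.7% were equal on chow and 32.5% on the HFD.

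**Figure D2:**
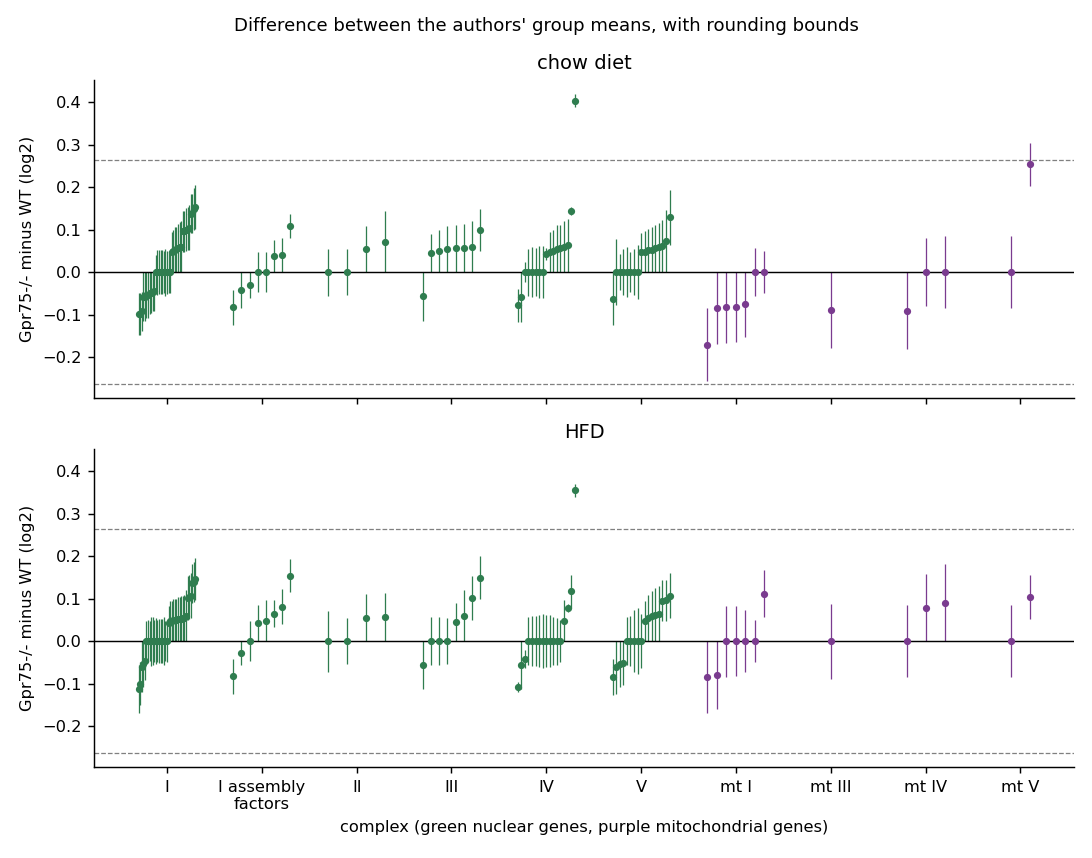
Difference in log2 level between Gpr75-/- and WT mice for each of the 104 genes, by complex, on chow (top) and HFD (bottom), with nuclear genes in green and mitochondrial genes in purple. Vertical bars are the bounds left by the 2 decimals of the authors' group means, not spread between mice, and dashed lines mark 1.2-fold. Of the points, only Cox6b2 (0.40 and 0.36) lies past the dashed lines, and the upper bound of mt-Atp8 on chow (0.31) reaches past them.

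Counting only differences that the rounding cannot produce, 16 genes were higher and 6 lower on chow, and 19 were higher and 6 lower on the HFD. These are 15.4% and 5.77% of the 104 genes on chow and 18.3% and 5.77% on the HFD. Of all protein-coding genes 28.9% were higher and 27.4% lower by this measure on chow, and 29.1% and 22.9% on the HFD. Both shares of the respiratory chain genes lay under those of all genes. Rounding hides more at high levels, and among other genes with a mean of at least 1000 the shares were 15.7% higher and 16.2% lower on chow, and 11.9% and 12.9% on the HFD. Beside those abundant genes, a smaller share of respiratory chain genes was lower on either diet, which rests on 6 genes each. The share that was higher was close on chow and larger on the HFD. Those abundant genes are longer, with a median of 3.51 kb on chow against 0.850 kb, and some respiratory chain genes have a mean under 1000. These gaps were not tested.

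Within the nuclear complexes, the mean difference on chow was 0.020 for complex I, 0.031 for complex II, 0.045 for complex III, 0.046 for complex IV and 0.030 for complex V. The rounding error of these means, as a standard error, ran from 0.0034 for complex I to 0.012 for complex II and covers no variation between mice. Complex III was the most one-sided, with 7 of 8 genes higher, although only Uqcr10 was higher beyond its rounding bounds. On the HFD 4 of its genes were higher, 3 equal and 1 lower. The means on the HFD were 0.026, 0.028, 0.037, 0.023 and 0.019 for complexes I to V. The complex IV means rested on Cox6b2. Without it the other 16 genes averaged 0.024 on chow and 0.0023 on the HFD, and the complex IV genes with a mean of at least 100 averaged 0.014 and 0.0083. All of these averages include the retrocopy Cox5b-ps, which differed by -0.078 on chow and 0.12 on the HFD, beyond rounding on each. Complex II, with 4 genes, was not set apart from complex I or III by more than rounding. Whether any of these gaps exceeds the spread between mice cannot be told from these means. The assembly factors averaged 0.0040 on chow and 0.035 on the HFD.

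Among genes with a mean of at least 100, several complex I genes, the most numerous class, were at the extremes on chow. Ndufb1, an accessory subunit, had log2 levels of 7.31 in WT and 7.46 in Gpr75-/- mice, a difference of 0.15. Ndufa12 had 7.11 and 7.26 (0.15), Ndufa2 6.59 and 6.73 (0.14) and Ndufb2 6.54 and 6.68 (0.14). All of these are accessory subunits, which surround the catalytic core. In the other direction, Ndufs7, the core subunit that holds the last iron-sulfur cluster before ubiquinone, had 7.21 and 7.11 (-0.099). Ndufb9 had 7.11 and 7.01 (-0.098) and Ndufs6 6.68 and 6.59 (-0.092).

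On the HFD the 5 highest and 5 lowest were other genes than on chow. How far such extremes overlap among all protein-coding genes was not examined. Ndufaf2, an assembly factor, had log2 levels of 5.46 in WT and 5.62 in Gpr75-/- mice, a difference of 0.15. Uqcr10, a small subunit of complex III, had 7.11 and 7.26 (0.15), Ndufb8 6.96 and 7.11 (0.15), Ndufa11 6.63 and 6.77 (0.14) and Ndufb7 6.45 and 6.59 (0.14). Ndufa11 and Ndufb7 had stood at -0.046 and -0.045 on chow, each with rounding bounds that reached 0. Among the lowest on the HFD were Ndufa10 with 8.22 and 8.11 (-0.11), Ndufs3 with 7.26 and 7.16 (-0.10), Atp5g2 with 6.19 and 6.11 (-0.085) and Ndufaf1 with 6.02 and 5.94 (-0.083).

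The split of complex I into core and accessory subunits gave different means, although both medians were 0 on chow. The 7 nuclear core subunits averaged 0.0027 on chow and -0.0072 on the HFD, with rounding errors of 0.0085 on each diet, and so lay at 0 within rounding. The 30 accessory subunits averaged 0.025 and 0.034, with rounding errors of 0.0037 and 0.0038. On chow the directions were alike, with 42.9% of core and 43.3% of accessory genes higher and 28.6% and 30% lower. On the HFD 28.6% and 53.3% were higher and 28.6% and 10% lower. The accessory genes had shorter transcripts, with a median of 0.773 kb against 1.62 kb. Among nuclear catalytic genes of the other complexes, Sdha differed by 0.071 on chow and 0 on the HFD, Sdhb by 0 and 0.056, Uqcrfs1 by 0.056 and -0.056, Atp5a1 by 0.073 and 0, Atp5b by 0 and 0, and Atp5c1 by 0.062 and 0.062. Each of these values is at most 1 step of the second decimal.

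The isoform genes differed little apart from Cox6b2. Cox7a1 had log2 levels of 1.31 in WT and 1.45 in Gpr75-/- mice on chow (0.14) and 1.36 and 1.43 on the HFD (0.077), higher beyond rounding on both diets. Ndufa4l2 had 2.00 and 2.04 on chow (0.042) and 1.78 and 1.67 on the HFD (-0.11), and Cox6a2 differed by 0 and -0.042. Among the c-ring genes Atp5g3 differed by 0.13 and 0.065, Atp5g1 by 0 and -0.054, and Atp5g2 by 0 and -0.085. The major forms Cox6a1, Cox6b1, Cox7a2, Cox4i1, Cox8a, Cox7b and Ndufa4 lay between -0.059 and 0.063 on chow and at 0 on the HFD, where Cox7b stood at -0.057. Cox7a2l differed by 0.048 on each diet.

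Mitochondrial and nuclear genes differed in direction on chow. Of the 13 mitochondrial genes 1 was higher in Gpr75-/- mice, 5 were equal and 7 were lower, with a mean difference of -0.033 (rounding error 0.0088) and a median of -0.076. Of the 91 nuclear genes 46 were higher, 27 were equal and 18 were lower, with a mean of 0.028 (rounding error 0.0022) and a median of 0.038. The gap between the medians was -0.11 and that between the means -0.061. Without the 3 nuclear genes with a mean under 100 (Cox6b2, Cox7a1 and Ndufa4l2) the nuclear median was 0, the gap between the medians -0.076 and the nuclear mean 0.023. As summed levels, mitochondrial against nuclear genes gave -0.10 on the log2 scale. The gap between the means has a rounding error of 0.0091. The mitochondrial median is the value of mt-Nd6 alone, whose rounding bounds reach 0. How these gaps compare with the spread between mice cannot be told from group means.

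On the HFD the gap was not seen. The 13 mitochondrial genes averaged 0.017 (rounding error 0.0087), with 4 higher, 7 equal and 2 lower, and the 91 nuclear genes 0.026 (rounding error 0.0022), with 41 higher, 35 equal and 15 lower. The medians were 0 in both, and the gap between the means was -0.0092 (rounding error 0.0090). Whether the gap differed between the diets was not tested.

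On chow the mitochondrial genes of complex I lay at or under 0. None of the 7 was higher, 5 were lower and 2, mt-Nd3 and mt-Nd4l, were equal. mt-Nd4, at positions 10167 to 11544 of the mitochondrial genome (chrM), had log2 levels of 12.38 in WT and 12.21 in Gpr75-/- mice, a difference of -0.17 with rounding bounds of -0.26 and -0.085. mt-Nd1 differed by -0.085, mt-Nd2 by -0.083, mt-Nd5 by -0.082 and mt-Nd6 by -0.076. Each of these 4 is 1 step of the second decimal with rounding bounds that reach 0. mt-Cytb differed by -0.089 and mt-Co1 by -0.091, also 1 step, and mt-Co2, mt-Co3 and mt-Atp6 by 0. mt-Nd4 was therefore the single mitochondrial gene lower beyond rounding.

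mt-Atp8, at positions 7766 to 7969 of chrM, went the other way. Its log2 level was 7.21 in WT and 7.46 in Gpr75-/- mice on chow, a difference of 0.25 with rounding bounds of 0.20 and 0.31. This is just under 1.2-fold and the second highest of the 104 genes. On the HFD it was 7.46 and 7.57 (0.10, bounds 0.052 and 0.16). mt-Atp6, which shares its transcript and 43 bases with mt-Atp8, was equal on both diets. Without mt-Atp8 the mitochondrial mean was -0.056 on chow and 0.0097 on the HFD, and the gap to the nuclear mean -0.085 and -0.016.

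On the HFD mt-Nd3, a core subunit of complex I, was the other mitochondrial gene higher beyond rounding. It had log2 levels of 8.0 in WT and 8.11 in Gpr75-/- mice (0.11, bounds 0.056 and 0.17). mt-Co1 differed by 0.090, mt-Co2 by 0.079, mt-Nd1 by -0.084 and mt-Nd5 by -0.080, each with bounds that reach 0. mt-Nd2, mt-Nd4, mt-Nd4l, mt-Nd6, mt-Cytb, mt-Co3 and mt-Atp6 were equal. The 2 mitochondrial ribosomal RNAs, which are transcribed from the same genome but are not members, averaged -0.038 on chow and 0.13 on the HFD. The rounding error was 0.026 on each diet. Neither was beyond its rounding bounds on chow, and 1 was on the HFD.

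The makeup of the mitochondrial mRNA pool, as the share of each gene in the counts of the 13 genes over both genotypes, was close on the 2 diets. mt-Co1 took 18.4% on chow and 18.8% on the HFD, mt-Cytb 15.5% and 15.6%, and mt-Nd1 10.3% and 10.3%. The 7 complex I genes together took 41.6% and 39.3%, and the 3 complex IV genes 33.4% and 34.9%. The widest relative gaps were those of mt-Atp8, with 0.335% and 0.411%, and mt-Nd6, with 4.10% and 3.60%. The diets had separate mice, and no spread is known for these shares.

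**Figure D3:**
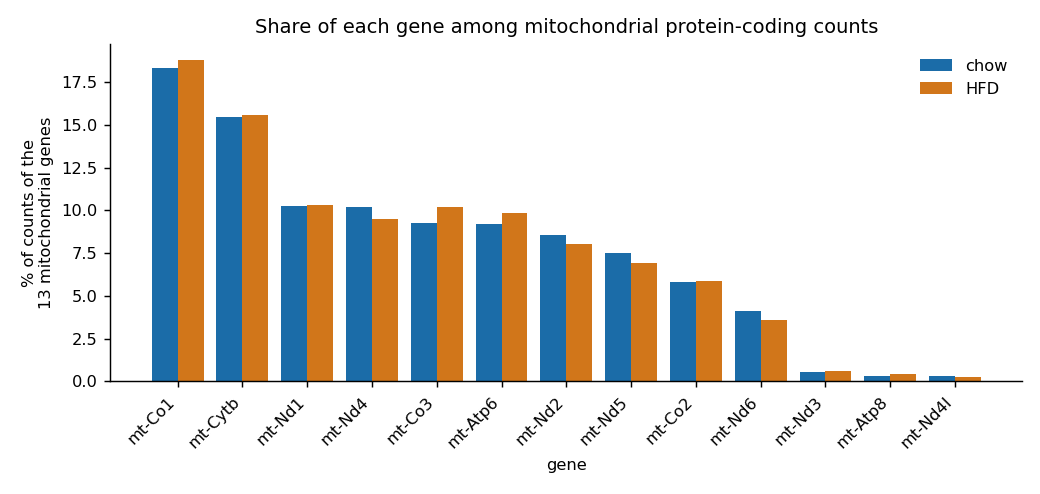
Share of each mitochondrial gene in the mean normalized counts of the 13 mitochondrial protein-coding genes, in percent, on chow (blue) and HFD (orange), over the 6 mice of each diet. The profiles are alike, from 18.4% and 18.8% for mt-Co1 to 0.297% and 0.288% for mt-Nd4l.

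Because the diets share no mice, the direction in one can be set beside that in the other. Of the 104 genes, 43 had a difference other than 0 on both diets, and 31 of these had the same sign (72.1%), 24 higher and 7 lower on both. Over all protein-coding genes in both tables the share was 55.9% (5240 of 9378). Across the 104 genes the differences on the 2 diets correlated with r = 0.43 (Pearson) and rho = 0.23 (Spearman), against 0.12 by either measure over 13698 protein-coding genes. Without Cox6b2, far above the other genes on both diets, r was 0.25 and rho 0.21 over 103 genes. These are descriptions across genes that share libraries within each diet. Among the mitochondrial genes 4 had a difference other than 0 on both diets, mt-Atp8 higher on both, mt-Nd1 and mt-Nd5 lower on both, and mt-Co1 lower on chow and higher on the HFD.

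Other gene lists were set beside the respiratory chain. The 77 mitochondrial ribosomal protein genes averaged 0.014 on chow and 0.032 on the HFD, with 36 higher and 26 lower on chow and 41 higher and 15 lower on the HFD. The 18 tricarboxylic acid cycle genes, which supply NADH and succinate to the chain, averaged 0.026 on chow (9 higher, 3 lower) and -0.012 on the HFD (3 higher, 7 lower). The 32 assembly factors of complexes II to V found in the tables averaged 0.025 on chow (17 higher, 11 lower) and 0.043 on the HFD (18 higher, 9 lower). A further 10 complex I assembly factors averaged 0.014 (4 higher, 5 lower) and 0.021 (5 higher, 3 lower). The 19 genes for mitochondrial DNA maintenance and transcription averaged -0.021 (8 higher, 8 lower) and 0.016 (9 higher, 7 lower). Cytosolic ribosomal protein genes averaged 0.0021 over 80 genes on chow (28 higher, 27 lower) and 0.066 over 79 genes on the HFD (56 higher, 12 lower).

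Respiratory chain transcripts are short, with a median of 0.850 kb against 3.02 kb over all protein-coding genes, and short and long genes differed in these tables. Other protein-coding genes averaged 0.031 under 1 kb, 0.0054 at 1 to 2 kb, 0.010 at 2 to 4 kb and -0.012 over 4 kb on chow. On the HFD the same classes averaged 0.041, 0.026, 0.014 and -0.017, so the means fell with each class on the HFD but not on chow. The nuclear respiratory chain genes (0.028 and 0.026) had means close to or under those of other genes under 1 kb. On chow 50.5% of them were higher, 29.7% equal and 19.8% lower, beside 51.2%, 15.3% and 33.5% of other genes under 1 kb. On the HFD the shares were 45.1%, 38.5% and 16.5%, beside 57.5%, 14.4% and 28.1%. The mitochondrial genes, with a median of 0.784 kb, averaged -0.033 on chow. The part of transcript length in these values was not tested.

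**Figure D4:**
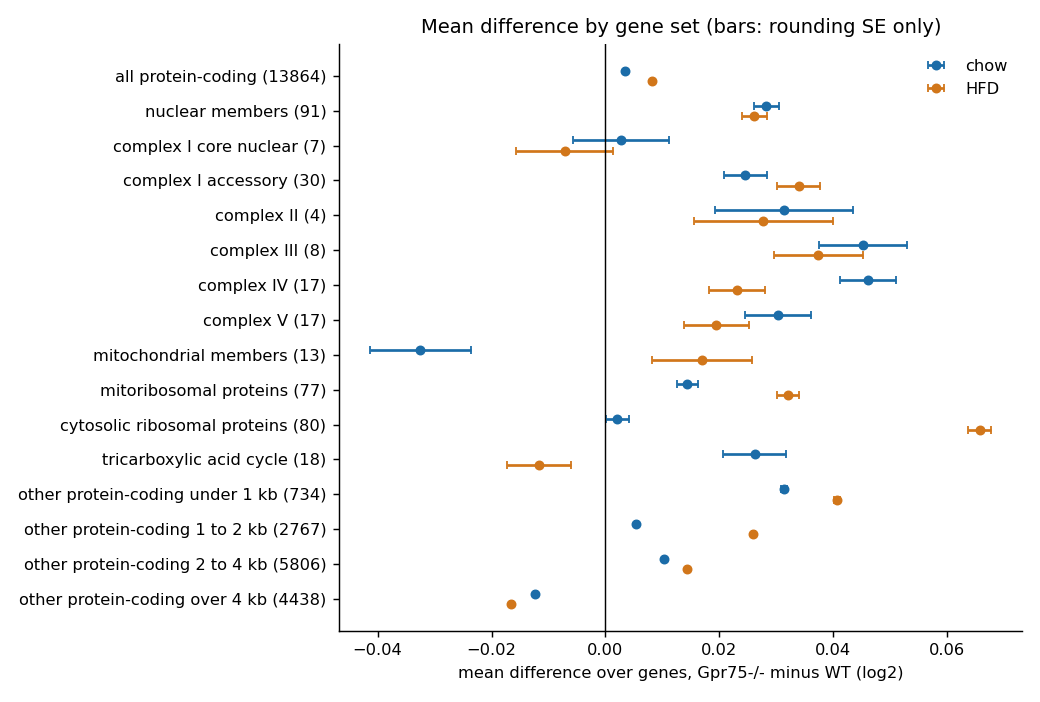
Mean difference in log2 level between Gpr75-/- and WT mice over gene sets, on chow (blue) and HFD (orange), with the number of genes on chow in brackets. Bars are standard errors from rounding alone, without variation between mice. The nuclear genes (0.028 and 0.026) lie near other genes under 1 kb (0.031 and 0.041), and the mitochondrial genes lie at -0.033 on chow and 0.017 on the HFD.

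Genes with an NRF1 motif in their promoter window, such as those printed above, had a lower mean difference than the rest on chow and a higher one on the HFD. The 19 genes with the motif averaged 0.016 on chow (median 0) and 0.040 on the HFD (median 0.049). The 56 without it averaged 0.036 (median 0.039) and 0.028 (median 0). These 56 include Cox6b2, with differences of 0.40 on chow and 0.36 on the HFD, and its part in the means was not tested. The gaps between the medians lie under the typical rounding bounds of 0.053. Median levels per kb on chow were 2178 with the motif and 1816 without it.

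Retrocopies of respiratory chain genes could share reads with their parents. The tables list 12 pseudogenes with matching symbols, with mean normalized counts of 22.5 to 497 on chow. Of these, 11 were higher in Gpr75-/- mice on chow and 9 on the HFD, with mean differences of 0.21 and 0.096. Processed pseudogenes as a whole had the same direction, 706 of 938 higher on chow (75.3%, mean 0.16) and 618 of 962 on the HFD (64.2%, mean 0.075). Ndufa12-ps had a mean of 497, beside 1329 for Ndufa12, and differed by 0.12 on chow, beside 0.15 for Ndufa12, and by -0.040 and 0.10 on the HFD. Whether shared reads moved the values of Ndufa12 or of other parents was not tested.

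The tissue label was checked with 12 hypothalamic genes, all of which were listed in both tables, among them Pmch at 4589 and 5138 and Hcrt at 2224 and 2351 mean normalized counts on chow and HFD. Levels of several marker lists differed between the group means of the genotypes, with no spread between mice known. All 10 oligodendrocyte markers were lower in Gpr75-/- mice on both diets, with a summed level 0.852 times that of WT on chow and 0.856 times on the HFD. On chow all 10 choroid plexus markers were higher (1.48 times in sum) and all 5 red blood cell markers were higher (1.60 times). On the HFD the 5 red blood cell markers were lower (0.893 times), 6 choroid plexus markers were listed, 3 higher and 3 lower (0.909 times in sum), and 11 of 12 hypothalamic genes were higher (1.21 times, against 1.04 times on chow). Markers of cerebellum, thalamus and striatum, regions outside the hypothalamus, stood at 0.975 times WT in sum on chow (5 of 7 lower) and 0.869 times on the HFD (5 of 8 lower). Their single log2 differences ranged from -0.68 to 0.065 on chow (mean -0.26) and from -0.34 to 1.33 on the HFD (mean 0.062). Summed neuron markers stood at 0.975 and 0.984 times WT, and those of astrocytes at 1.0 and 1.04 times. The part of these differences in the values of the respiratory chain genes was not tested, and in whole tissue fewer cells of a type and less RNA per cell cannot be told apart.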

How the data were processed

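Hypothalamus RNA was extracted with TRIzol and the PureLink kit, and libraries were made with the SMART-Seq mRNA LP kit. The submitters' processing notes name STAR, featureCounts, StringTie, DESeq2 and the mouse build GRCm39, without versions. The authors deposited 1 table per diet. Each holds a mean normalized count per gene (a signal scaled by DESeq2 size factors) over 6 mice, the mean of each group of 3 mice, and the authors' own comparison (fold changes, test statistics, p-values and adjusted p-values), which was not used. The authors' group means are deposited on a log2 scale that had been logged again and rounded to 2 decimals: 2 raised to the value followed the log2 mean count with a slope of 1.00 on each diet. Raw counts and values of single mice were not analysed here, so no test of these values, interval between mice or depth per sample is given.

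Differences were taken as Gpr75-/- minus WT on the log2 level, with bounds from rounding each mean to a step of 0.01. Genes with a mean of at least 10 were kept, which left all 104 members. Lengths came from GENCODE vM21 principal coding transcripts matched by gene identifier, and promoters from RefSeq (GRCm38.p6). The calculation was tested on simulated data. Python 3.11.15, numpy 2.4.6 and pandas 2.3.3 were used. Genes named were the mitochondrial genes, catalytic subunits, isoform pairs and, with a mean of at least 100, the 5 highest and 5 lowest per diet. Pseudogenes, and genes named as the highest or lowest level of a complex, were chosen after their values were seen. Values of 1 catalytic subunit gene are not reported here. The members and the gene lists were chosen with earlier results of these data known.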

Additional observations from a re-analysis of the deposited data

How the results depend on the processing

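The count of genes past the fold limit was 1 on each diet at 1.2-fold. It was 7 on chow and 5 on the HFD at 1.1-fold, and 0 on each diet at 1.5-fold. It was also 0 on each diet when genes needed a mean of at least 100 or of at least 1000, since Cox6b2 then drops out. With lengths from the union of all exons, an alternative chosen after seeing the data, the median level of the nuclear genes was 1048 per kb on chow in place of 1796, and 1131 on the HFD in place of 2015. Of 92 alternative values, 50 stayed within the rounding error of the mean of their set, or within 1.5 times for a count, and 42 moved by more. The mean difference of all members on chow was 0.015 with a mean of at least 100 and 0.017 with at least 1000, in place of 0.021, and on the HFD 0.022 with at least 1000 in place of 0.025.

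The values of single complexes depended on the summary, since rounding makes medians coarse. On chow the median was 0 for complex I, where the mean was 0.020 and the summed levels gave 0.020, and 0.055 for complex III, where they gave 0.045 and 0.040. It was 0.046 for complex V, where they gave 0.030 and 0.031. Summed levels gave 0.052 in place of 0.027 for complex II, -0.0060 in place of 0 for the assembly factors and 0.019 in place of 0.042 for complex IV, whose median was 0 with a mean of at least 100. On the HFD the median was 0 for complex I, where the mean was 0.026 and the summed levels gave 0.019, and 0 for complex V, where they gave 0.019 and 0.011. It was 0.045 for the assembly factors, where they gave 0.035 and 0.033. The mean was 0.037 in place of 0.023 for complex III and 0.023 in place of 0 for complex IV, and summed levels gave 0.014 in place of 0.027 for complex II and -0.00091 for complex IV. The mean of complex IV was 0.024 on chow and 0.0023 on the HFD without Cox6b2, and 0.014 and 0.0083 with a mean of at least 100, in place of 0.046 and 0.023, alternatives chosen after seeing the data.

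The gap between mitochondrial and nuclear genes on chow kept its direction. It was -0.11 between medians, -0.10 from summed levels, -0.061 between means, -0.085 between means without mt-Atp8 and -0.076 between medians with a mean of at least 100. On the HFD it was 0 between medians, -0.0092 between means and -0.016 without mt-Atp8. The comparisons of means and the last filter were chosen after seeing the data.

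No paired analysis was possible because the tables hold no values of single mice, and leaving out single mice was not run for the same reason. Variation between mice and depth per sample were not available to these values, and the 2 decimals limit single genes to steps of about 0.053 on the log2 scale.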
